A study of Mus musculus with 12 samples.

Results

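Gluconeogenesis, the making of glucose from lactate, glycerol and amino acids, was followed here through the transcription of 4 genes in mouse liver: Pck1, G6pc, Fbp1 and Pcx. They were chosen by gene symbol, and all 4 were found among the 21490 symbols of the deposited signal table and among the 6284 symbols tested, those above 6 reads per base pair (rpbp) in at least 1 library. The study profiled nascent RNA, the RNA still attached to chromatin while it is being made, to learn which genes are transcribed rhythmically over the day. Livers of adult male C57BL/6 mice (3 to 6 months old), kept on 12 hr of light and 12 hr of darkness for at least 2 weeks, were collected at 6 zeitgeber times counted in hours from lights on (ZT0, ZT4, ZT8, ZT12, ZT16 and ZT20). Each time point had 2 replicates, giving 12 libraries. All groups were untreated and of the same strain, tissue and lighting. They differed by design in the time of collection, so no group was a control and each time point was compared with the rest. The libraries of ZT8 and ZT20 also differed from the others in sequencing, with 2 lanes in place of 1. The labels do not say whether replicates came from separate animals, and the p-values measure only the spread between these samples. The tissue held several cell types, and fewer cells of a type cannot be told apart from less RNA per cell.

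The pathway runs largely against the direction of glycolysis and uses its own enzymes where a glycolytic step cannot be reversed. Pcx encodes pyruvate carboxylase, which turns pyruvate into oxaloacetate in mitochondria, and Pck1 encodes the cytosolic phosphoenolpyruvate carboxykinase, which turns oxaloacetate into phosphoenolpyruvate. Fbp1 encodes fructose-1,6-bisphosphatase, and G6pc encodes the catalytic subunit of glucose-6-phosphatase, which releases free glucose and also ends glycogen breakdown. In liver, glucagon and glucocorticoids are known to raise transcription of Pck1 and G6pc during fasting, insulin lowers it after feeding, and mice on this lighting feed mostly in the dark.

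In the mm9 genome build, the table placed Pck1 on chromosome 2 (172978574 to 172984754), G6pc on chromosome 11 (101229044 to 101239217), Fbp1 on chromosome 13 (62966113 to 62989596) and Pcx on chromosome 19 (4510522 to 4621698). The GENCODE M1 annotation has all of them as protein-coding, with Fbp1 on the minus strand and the others on the plus strand. The signal was summed over the exons without regard to strand. Pcx was the only one of the 4 whose span overlapped another symbol, Lrfn4 on the opposite strand (mean 10.3 rpbp), and the exons of the pair shared 0 bases.

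The 250 bases before the RefSeq start site of each gene are shown because Pck1 and Fbp1 had different time courses, and because glucagon, insulin and clock signals are known to act through short motifs in such promoters. The sequences are from RefSeq (GRCm38.p6) and were placed in mm9 by an exact match, for all 4 genes. Each match was the only one on its chromosome in the orientation searched, and other chromosomes were not searched. Pcx has a further RefSeq start downstream, which is not shown. Capitals mark the motifs searched on both strands.
Pck1 (chr2:172978324-172978573, plus strand): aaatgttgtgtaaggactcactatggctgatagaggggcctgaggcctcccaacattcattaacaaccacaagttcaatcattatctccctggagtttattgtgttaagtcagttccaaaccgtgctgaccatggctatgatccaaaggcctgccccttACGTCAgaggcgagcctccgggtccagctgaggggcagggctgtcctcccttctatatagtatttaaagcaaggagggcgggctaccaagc
G6pc (chr11:101228780-101229029, plus strand): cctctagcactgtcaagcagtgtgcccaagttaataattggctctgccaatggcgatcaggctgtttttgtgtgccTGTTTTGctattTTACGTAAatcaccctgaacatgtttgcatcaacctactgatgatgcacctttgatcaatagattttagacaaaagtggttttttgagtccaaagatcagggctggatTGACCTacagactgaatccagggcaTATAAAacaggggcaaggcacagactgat
Fbp1 (chr13:62989643-62989892, minus strand): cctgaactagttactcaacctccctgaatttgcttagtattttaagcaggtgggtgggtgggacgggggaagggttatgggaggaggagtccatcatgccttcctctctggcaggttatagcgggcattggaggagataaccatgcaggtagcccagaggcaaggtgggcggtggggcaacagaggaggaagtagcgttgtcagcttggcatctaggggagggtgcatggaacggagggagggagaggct
Pcx (chr19:4510222-4510471, plus strand): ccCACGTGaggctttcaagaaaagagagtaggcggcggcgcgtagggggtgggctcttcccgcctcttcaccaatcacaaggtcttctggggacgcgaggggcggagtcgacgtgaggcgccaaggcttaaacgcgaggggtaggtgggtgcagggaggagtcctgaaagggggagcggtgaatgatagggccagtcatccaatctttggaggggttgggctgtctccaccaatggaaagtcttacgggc

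The motifs searched were the E-box CACGTG, the cAMP response core ACGTCA, the D-box TTACGTAA or TTATGTAA, the core AGGTCA of nuclear receptor and ROR elements, the insulin response motif TGTTTTG or TATTTTG, and the TATA box TATAAA. In Pck1, the cAMP response core was found 91 to 86 bases before the start, a match that 6.50% of 32536 distinct mouse promoter windows of the same length held. In G6pc, the insulin response motif lay 174 to 168 bases before the start, and 9.17% of the windows held one. The D-box of G6pc lay 162 to 155 bases before the start (0.925% of windows), its AGGTCA core, read on the opposite strand as TGACCT, lay 54 to 49 bases before it (14.0%), and its TATA box lay 29 to 24 bases before it (12.3%). In Pcx the E-box was found 248 to 243 bases before the upstream start site (6.04% of windows), and in Fbp1 none of these letters were found. A match is a description of the sequence and says nothing about what was bound there.

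Pck1 had the highest nascent signal of the 4 genes and was the most variable. Its level was 299 ± 214 rpbp (SD, n = 12 libraries), rank 22 of the 6284 tested symbols, followed by G6pc with 123 ± 76.6 rpbp (rank 60), Fbp1 with 61.5 ± 19.1 rpbp (rank 151) and Pcx with 22.4 ± 3.55 rpbp (rank 629). Rpbp is a level per exon base, scaled by the uniquely mapped reads of each library. Between genes it is corrected for exon length only. The study describes a gradient of nascent signal along many genes, so these ranks are of signal and are not rates of transcription. The SD over the 12 libraries was 71.5% of the mean for Pck1, 62.2% for G6pc, 31.0% for Fbp1 and 15.8% for Pcx.

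**Figure D1:**
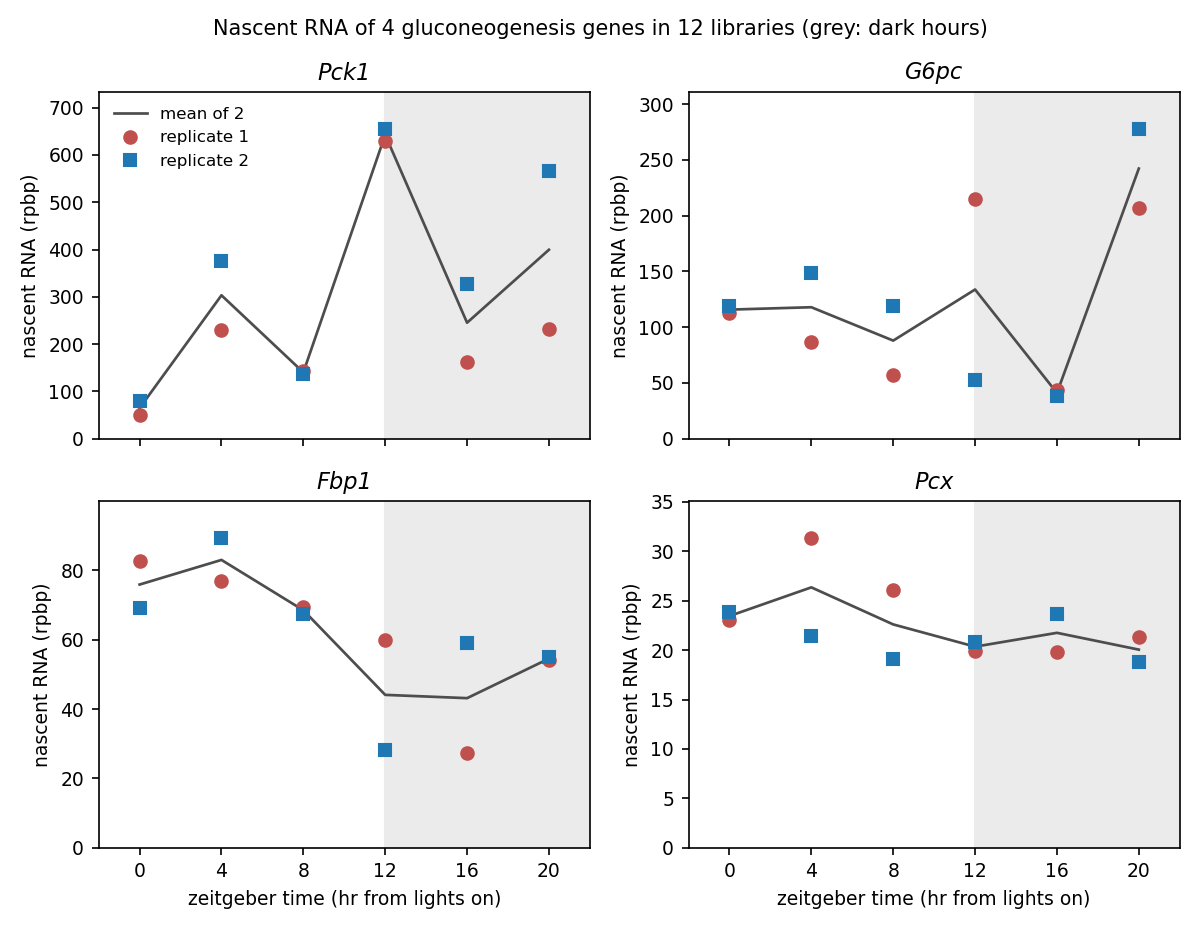
Nascent RNA signal (rpbp, vertical axes starting at 0) of Pck1, G6pc, Fbp1 and Pcx against zeitgeber time, with 1 point per library, a line through the means of 2 replicates and grey for the dark hours. Pck1 is highest at ZT12 and lowest at ZT0, the G6pc replicates lie far apart at ZT12, all 6 light-hour libraries of Fbp1 lie above all 6 dark-hour libraries, and Pcx stays between 18.8 and 31.3 rpbp.

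Pck1, whose enzyme commits oxaloacetate to the path to glucose, had its highest nascent signal at lights off and its lowest at lights on. At ZT12 its replicates were at 630.4 and 654.7 rpbp, and at ZT0 they were at 49.3 and 79.6 rpbp. The time-point means were 643 ± 17.2 rpbp and 64.5 ± 21.4 rpbp (SD, n = 2), a 9.97-fold difference. The ranges of these 2 time points lay apart from those of all others. The signal was at 229.6 and 376.6 rpbp at ZT4 and fell back to 142.6 and 137.5 rpbp at ZT8. After ZT12 it was at 162.9 and 327.3 rpbp at ZT16 and at 232.6 and 566.3 rpbp at ZT20, where replicates differed 2.43-fold, a difference that only 1.13% of tested genes matched or exceeded at that time point. The means at ZT4, ZT12 and ZT20 were thus each above those of the neighbouring time points, without overlap of the replicates except between ZT20 and ZT16. In the order of levels (ZT12, ZT20, ZT4, ZT16, ZT8, ZT0), 2 of the 5 neighbouring pairs, ZT20 with ZT4 and ZT4 with ZT16, overlapped.

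The time points differed for Pck1 by limma's moderated F-test of the values log2(rpbp + 1) (adjusted p = 0.0172 over all tested genes), and for 1 of the 4 genes in all. Of all tested symbols, 7.65% passed this test. Against the mean of the other 5 time points, Pck1 was 3.46-fold higher at ZT12 (log2 difference 1.79 ± 0.35 SE, limma adjusted p = 0.0380) and 4.64-fold lower at ZT0 (log2 difference -2.22 ± 0.35, limma adjusted p = 0.0175). These contrasts were chosen after the data were seen and adjusted over all genes and time points together, where 1.64% of the pairs of gene and time point passed. The ZT12 call was lost with libraries rescaled to equal medians (log2 difference 1.72, limma adjusted p = 0.0510) and with the trend with exon GC content removed (1.61, limma adjusted p = 0.0816). It was also lost when either replicate of ZT0, ZT8 or ZT12, or replicate 1 of ZT4, was left out, with adjusted p up to 0.149, and the ZT0 call was lost without either of its own replicates (limma adjusted p = 0.118 without replicate 1 and 0.0540 without replicate 2). The F-test call was lost without ZT0 replicate 1 (limma adjusted p = 0.0723) or ZT12 replicate 2 (0.0545).

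**Figure D2:**
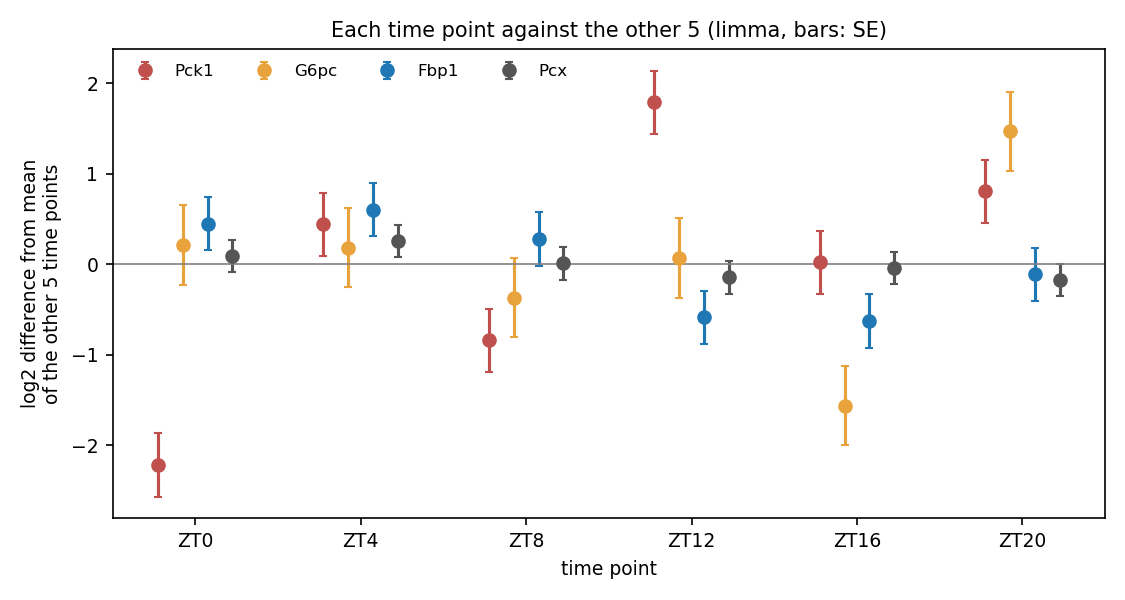
Log2 difference of each time point from the mean of the other 5 time points for Pck1, G6pc, Fbp1 and Pcx (limma on log2(rpbp + 1), points with SE bars, 12 libraries). Pck1 stands at 1.79 at ZT12 and -2.22 at ZT0, and G6pc at -1.56 at ZT16 and 1.47 at ZT20.

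Pck1 was also higher in the dark hours than in the light hours. The 6 libraries of ZT0, ZT4 and ZT8 lay between 49.3 and 376.6 rpbp (169 ± 119 rpbp, SD), and the 6 libraries of ZT12, the time of lights off, ZT16 and ZT20 lay between 162.9 and 654.7 rpbp (429 ± 215 rpbp), so that the groups overlapped. The dark hours were 2.74-fold higher (log2 light minus dark -1.45 ± 0.26 SE, 95% interval -2.03 to -0.88, limma adjusted p = 0.0172). Of the tested symbols, 1.81% were called higher in the dark hours, among them 1 of the 4 genes, and 2.37% higher in the light hours, among them 0 of the 4 genes. With ZT0 and ZT12 set aside, the log2 difference fell to -0.51 and did not pass (limma adjusted p = 0.427), so the call depended on ZT0 and ZT12. It was also lost without ZT0 replicate 1 (-1.34, limma adjusted p = 0.0551). The summed level of 4 stellate cell and fibroblast markers (Des, Lrat, Dcn and Col1a1) moved the same way, with 4.2 to 6.3 rpbp in the light hours and 7.4 to 8.9 rpbp in the dark hours without overlap. All 4 were detected, at means of 0.133 to 3.32 rpbp, and their part in the Pck1 result was not tested. The 8 hepatocyte markers summed to 871 to 1778 rpbp in the light hours and 972 to 2089 rpbp in the dark hours, which overlapped. Of 5 macrophage markers tested, 1 was called higher in the dark hours, Clec4f (log2 light minus dark -1.01 ± 0.23, limma adjusted p = 0.0415). Among 8 hepatocyte markers tested, 1 was called higher in the light hours, Asgr1 (0.48 ± 0.11, limma adjusted p = 0.0422). The median log2 light minus dark difference was 0.17 over the macrophage markers, opposite in sign to Clec4f. Over the hepatocyte markers it was 0.04, and Apoa1, Trf and Cps1 had differences opposite in sign to Asgr1, without a call.

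As a daily cosine, however, Pck1 was not called. The share of the variance over the 12 values in the 24-hr Fourier component (F24) was 0.273, with a peak at 13.5 hr (permutation p = 0.235). The libraries of ZT8 and ZT20 were run in 2 lanes and all others in 1, so lanes and time points cannot be told apart, and in the 4 time points with 1 lane F24 was 0.900 (permutation p = 0.00643). The 24-hr component therefore depended on whether ZT8 and ZT20 were included.

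G6pc, the last enzyme before free glucose, had its highest mean at ZT20 and its lowest at ZT16, 4 hr apart. At ZT20 its replicates were at 206.9 and 277.7 rpbp, and at ZT16 at 43.5 and 38.3 rpbp. The means of 242 ± 50.1 and 40.9 ± 3.68 rpbp (SD, n = 2) differed 5.92-fold. In the light hours the signal was at 112.4 and 119.0 rpbp at ZT0, at 86.7 and 149.0 rpbp at ZT4, and at 57.0 and 118.8 rpbp at ZT8. At ZT12 the replicates disagreed, with 215.2 against 52.3 rpbp. This 4.12-fold difference was matched or exceeded at ZT12 by only 0.541% of the tested genes. In the order ZT20, ZT12, ZT4, ZT0, ZT8, ZT16, 4 of the 5 neighbouring pairs overlapped, and ZT8 lay apart from ZT16.

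The time points of G6pc did not pass the F-test (limma adjusted p = 0.127). Leaving out either of the ZT12 libraries took it past the threshold (limma adjusted p = 0.0407 without replicate 1 and 0.0389 without replicate 2), and at ZT16 and ZT20 against the other 5 time points the log2 differences were -1.56 ± 0.44 (limma adjusted p = 0.107) and 1.47 ± 0.44 (limma adjusted p = 0.127). The log2 light minus dark difference was 0.02 ± 0.33 with a 95% interval from -0.71 to 0.74 (limma adjusted p = 0.984). Differences in either direction within that interval are therefore not excluded. F24 was 0.145 (permutation p = 0.487).

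Fbp1 was the one gene of the 4 that met the criteria for a daily rhythm, with a peak early in the light hours. Its replicates were at 82.7 and 69.1 rpbp at ZT0, 76.8 and 89.2 rpbp at ZT4, and 69.5 and 67.5 rpbp at ZT8. In the dark hours they were at 60.0 and 28.2 rpbp at ZT12, 27.3 and 59.0 rpbp at ZT16, and 54.2 and 54.9 rpbp at ZT20. Every light-hour library was above every dark-hour library. F24 was 0.697 with a peak at 3.08 hr (permutation p = 0.00248, adjusted p = 0.0994 over all tested genes), and the highest mean, 83.0 ± 8.77 rpbp at ZT4, was 1.92-fold the lowest, 43.2 ± 22.4 rpbp at ZT16. Thus 1 of the 4 genes was called rhythmic, against 15.2% of all tested symbols, and the same 1 met the limits for a strong rhythm, against 6.38%.

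The phases of Fbp1 in the replicate series taken singly were 3.64 and 2.45 hr, although neither series of 6 values passed alone (exact permutation p = 0.0667 and 0.233). Its adjusted permutation p did not pass, and neither did F24 in the 4 time points with 1 lane (0.685, permutation p = 0.0602). F24 was 0.518 with libraries rescaled to equal medians (permutation p = 0.0340) and 0.560 with the GC trend removed (permutation p = 0.0213). In both settings Fbp1 stayed rhythmic but fell below the limit of 0.6 for a strong rhythm. The replicates differed 2.13-fold at ZT12 and 2.16-fold at ZT16, differences that 3.15% and 8.0% of tested genes matched or exceeded, and the F-test over time points did not pass (limma adjusted p = 0.234). In the order ZT4, ZT0, ZT8, ZT20, ZT12, ZT16, 4 of the 5 neighbouring pairs overlapped, and ZT8 lay apart from ZT20.

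Light-hour levels of Fbp1 were 75.8 ± 8.74 rpbp and dark-hour levels 47.3 ± 15.3 rpbp (SD, n = 6 each). The log2 difference of 0.74 ± 0.22 (95% interval 0.25 to 1.22) did not pass after adjustment over all tested genes (limma adjusted p = 0.0894), while an exact two-sided permutation test of Fbp1 alone gave p = 0.00216, the smallest value that the test allows. Without ZT12 replicate 1 or ZT16 replicate 2 the adjusted p fell to 0.0437 and 0.0306 (limma). The summed stellate markers had no overlap between light and dark hours either, in the opposite direction to Fbp1, and their part was not tested.

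Pcx, at the entry to the pathway, varied least. Its replicates were at 23.0 and 23.9 rpbp at ZT0, 31.3 and 21.4 rpbp at ZT4, and 26.1 and 19.1 rpbp at ZT8. In the dark hours they were at 19.9 and 20.8 rpbp at ZT12, 19.8 and 23.7 rpbp at ZT16, and 21.3 and 18.8 rpbp at ZT20. The highest mean (26.4 ± 7.0 rpbp, ZT4) was 1.31-fold the lowest (20.1 ± 1.77 rpbp, ZT20), and all 5 neighbouring pairs in the order of levels overlapped. The time points did not pass the F-test (limma adjusted p = 0.745), the light minus dark difference was 0.20 ± 0.13 on the log2 scale (95% interval -0.10 to 0.49, limma adjusted p = 0.439), and F24 was 0.266 (permutation p = 0.242). F24 was 0.808 in the first replicate series and 0.0871 in the second, so the series differed for this gene.

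Pck1 and Fbp1 differed in their time courses. To compare the genes within a library, the log2 ratio of each of the 6 pairs of genes was tested over the 6 time points with an exact permutation test, chosen after the data were seen, over the 10395 ways to divide 12 libraries into 6 pairs. The ratio of Pck1 to Fbp1 rose from -0.27 ± 0.66 at ZT0 to 3.93 ± 0.79 at ZT12 (log2 ratio, SD, n = 2; exact permutation p = 0.00125, adjusted over the 6 pairs 0.00750). It lay between -0.73 and 2.07 in the light-hour libraries and between 2.08 and 4.49 in the dark-hour libraries, with no overlap, and kept an adjusted p of at most 0.0462 whichever library was left out. The ratio of Pck1 to Pcx changed from 1.38 ± 0.44 at ZT0 to 4.91 at ZT12 (exact permutation p = 0.0119, adjusted 0.0358), but this call was lost without either replicate of ZT0, ZT8, ZT12 or ZT16 (adjusted p up to 0.197). The ratio of Pck1 to G6pc had an exact permutation p of 0.0285 and did not pass after adjustment (0.0570). For G6pc with Fbp1, G6pc with Pcx, and Fbp1 with Pcx the adjusted exact permutation p was 0.132, 0.269 and 0.454.

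**Figure D3:**
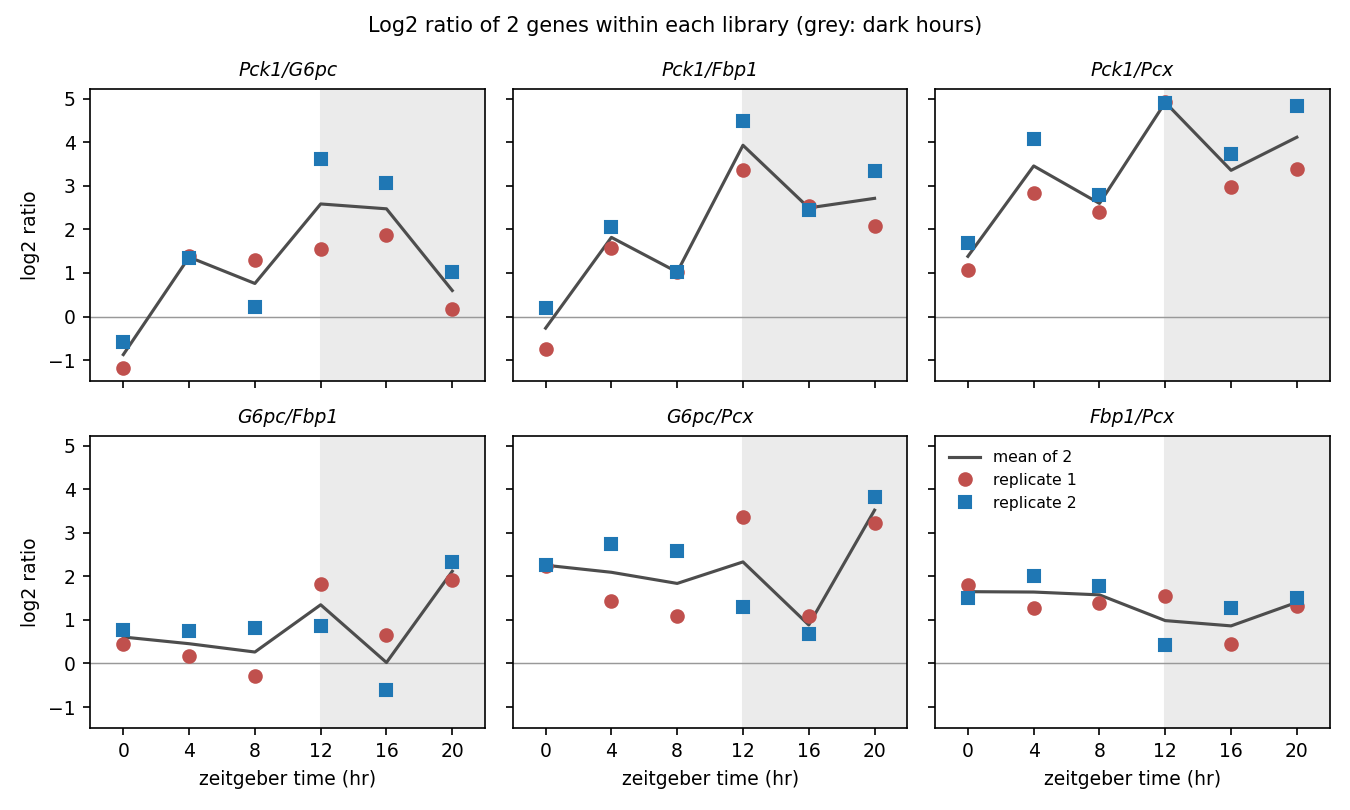
Log2 ratio of 2 genes (difference of their log2(rpbp + 1) values) within each library, for all 6 pairs of Pck1, G6pc, Fbp1 and Pcx, against zeitgeber time, with 1 point per library, a line through the means of 2 replicates and grey for the dark hours. The ratio of Pck1 to Fbp1 lies between -0.73 and 2.07 in the light hours and between 2.08 and 4.49 in the dark hours.

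Some of the other enzymes and carriers of the pathway were called, with peaks at various times. Of 32 listed genes, 21 were tested, and the 11 others did not exceed 6 rpbp in any library. Of the tested, 5 were rhythmic (2 strongly), 4 passed the F-test, and 1 was higher in the light hours and 0 in the dark hours, with a median light minus dark log2 difference of 0.17 against 0.05 over all tested symbols, of which 15.2% were rhythmic, 6.38% strongly so, and 7.65% passed the F-test. In total 7 of 21 were called by at least 1 of the tests, against 1200 of the 6284 tested symbols.

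Tat, tyrosine aminotransferase, which breaks down an amino acid that feeds gluconeogenesis, differed between time points (limma adjusted p = 0.0482). Like Pck1, it had higher means at ZT4, ZT12 and ZT20 than at the time points beside them, with 456.6 and 357.2 rpbp at ZT12 and 363.4 and 409.2 rpbp at ZT20 against 148.4 and 82.9 rpbp at ZT16. G6pc2, a relative of G6pc best known from pancreatic islets, was at 17.7 and 15.3 rpbp at ZT20 and at 1.3 and 1.7 rpbp at ZT8 (limma F-test adjusted p = 0.0103, F24 = 0.587, peak at 20.8 hr). Its highest time point was thus that of G6pc. Pdk4, a kinase that holds pyruvate back from oxidation, was at 6.0 and 4.4 rpbp at ZT20, its highest mean, and at 0.1 and 0.4 rpbp at ZT12. It met the limits for a strong rhythm (F24 = 0.716, peak at 23.6 hr, adjusted permutation p = 0.136). Pdk4 was the 1 listed gene called higher in the light hours (log2 difference 0.84 ± 0.20, limma adjusted p = 0.0429), in part through values below 3 rpbp. It exceeded 6 rpbp only in ZT0 replicate 2 (6.4 rpbp), a light-hour library close to the fitted peak. Pdk4 was thus tested only through the side called higher, and no conclusion is drawn from any of its calls.

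Ldha, a subunit of lactate dehydrogenase, was called strongly rhythmic with low amplitude (F24 = 0.697, peak at 21.4 hr, 12.1 rpbp at ZT0 against 6.40 rpbp at ZT8). Gpd1 and Aqp9, which bring glycerol into the pathway, were called rhythmic with peaks at 0.411 hr (F24 = 0.512) and 6.33 hr (F24 = 0.529). The adjusted permutation p did not pass for Ldha (0.0998), Gpd1 (0.283), Aqp9 (0.241) or G6pc2 (0.186). The F-test did not pass for Ldha, Gpd1 or Aqp9 either (limma adjusted p = 0.0894, 0.211 and 0.207).

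Genes of the opposing, glycolytic direction changed as well. Of 6 listed, 4 were tested, 2 were strongly rhythmic, 2 passed the F-test, and 2 were higher in the light hours and 0 in the dark hours, with a median light minus dark log2 difference of 0.03. Over all tested symbols 6.38% were strongly rhythmic, 7.65% passed the F-test and 2.37% were higher in the light hours. Gckr, the protein that holds glucokinase inactive in the nucleus, fell from 92.4 and 120.6 rpbp at ZT0 to 31.4 and 37.4 rpbp at ZT12. Its F24 was 0.878 with a peak at 1.05 hr (adjusted permutation p = 0.0222). Its log2 light minus dark difference was 0.77 ± 0.14 (limma adjusted p = 0.0193). Pklr, the liver pyruvate kinase that acts against Pck1 and Pcx, was at 5.4 and 7.7 rpbp at ZT12 against 39.4 and 109.9 rpbp at ZT8 (log2 light minus dark 1.67 ± 0.33, limma adjusted p = 0.0228). Pklr was therefore lowest at the time point where Pck1 was highest. Pfkfb1, which sets the level of fructose-2,6-bisphosphate, an inhibitor of the Fbp1 enzyme, was called strongly rhythmic with a peak at 13.6 hr (F24 = 0.621). Its adjusted permutation p was 0.192. It passed neither the F-test (limma adjusted p = 0.140) nor the light against dark test (limma adjusted p = 0.0894). At ZT16 its replicates were at 12.1 and 30.1 rpbp. A link with Fbp1 was not tested.

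**Figure D4:**
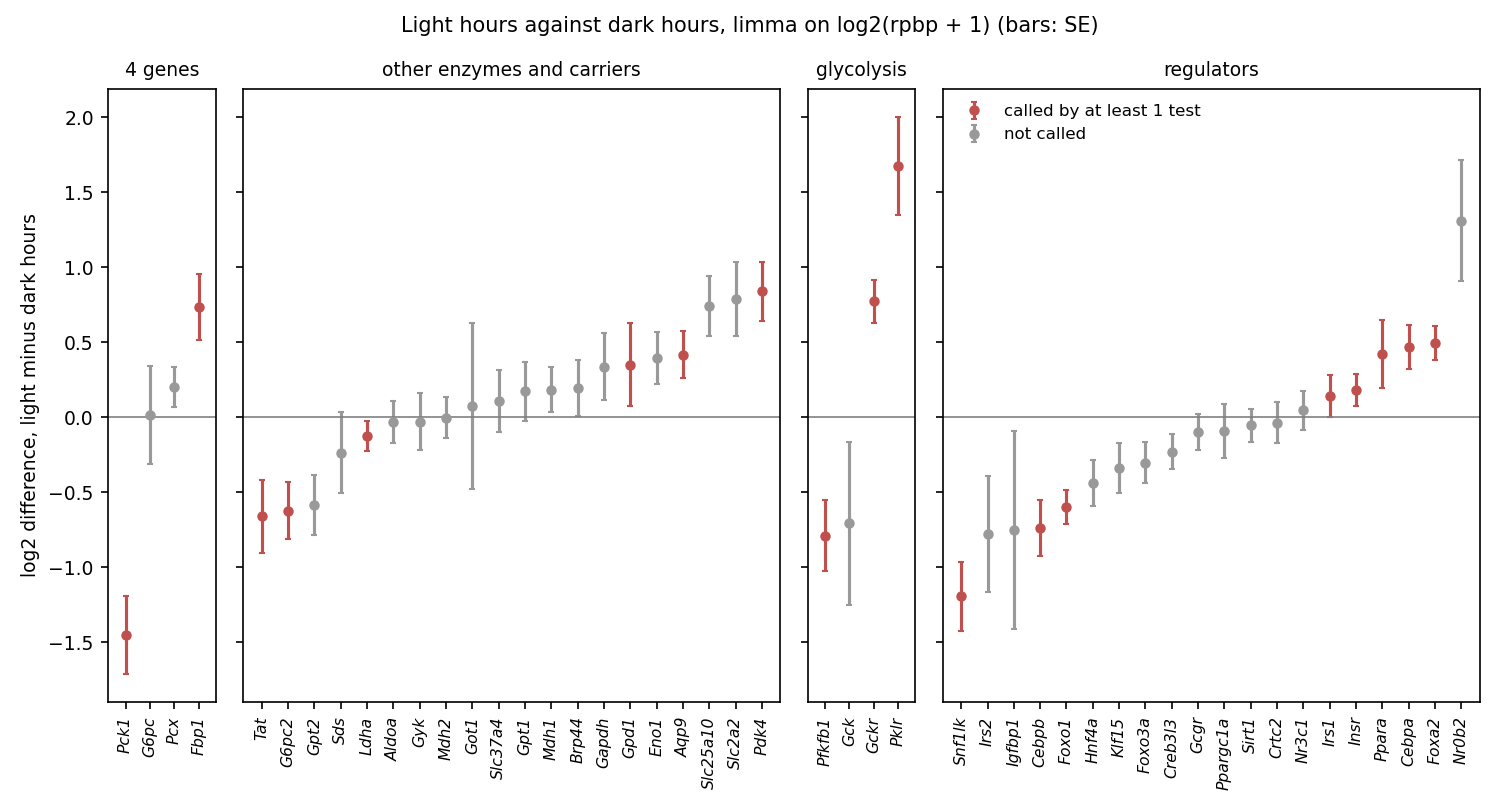
Log2 difference of light minus dark hours (limma on log2(rpbp + 1), points with SE bars, 12 libraries) for Pck1, G6pc, Fbp1 and Pcx, 20 other enzymes and carriers, 4 glycolytic genes and 20 regulators, in red where at least 1 of the tests called the gene. Pck1 at -1.45 has the lowest value shown, Pklr at 1.67 the highest, and Fbp1 stands at 0.74.

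Among 22 listed regulators 20 were tested, and 5 were rhythmic (0 strongly), 4 passed the F-test, 1 was higher in the light hours and 2 in the dark hours, with a median light minus dark log2 difference of -0.10. In total 8 of 20 were called by at least 1 test, against 1200 of the 6284 tested symbols. Over all tested symbols 15.2% were rhythmic, 6.38% strongly so, and 7.65% passed the F-test. Of them, 2.37% were higher in the light hours and 1.81% in the dark hours. Foxo1, a transcription factor that insulin holds out of the nucleus, was at 18.4 and 16.9 rpbp at ZT12 and between 5.7 and 11 rpbp in all other libraries, so it was highest where Pck1 was highest. Its log2 light minus dark difference was -0.60 ± 0.11 (limma adjusted p = 0.0193). It was called rhythmic with F24 = 0.591 and a peak at 12.7 hr, although its adjusted permutation p was 0.0882. Cebpb, another activator of Pck1, was at 41.9 and 25.4 rpbp at ZT12 and at 5.5 rpbp in both libraries of ZT20 (limma F-test adjusted p = 0.0124). Snf1lk, also named Sik1, a kinase induced by cAMP that restrains the coactivator Crtc2, was higher in the dark hours (log2 light minus dark -1.20 ± 0.23, limma adjusted p = 0.0208), with 20 and 9.1 rpbp at ZT12. Of the tested regulators not called, Ppargc1a, Foxo3a, Crtc2, Creb3l3, Hnf4a, Klf15, Gcgr, Irs2 and Igfbp1 also had their highest mean at ZT12. A highest mean at that time point was therefore not particular to Foxo1, Cebpb and Snf1lk.

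The other regulators called had their highest means in the light hours. Foxa2, a factor that opens liver chromatin, was higher there (log2 difference 0.49 ± 0.11, limma adjusted p = 0.0417) and was rhythmic with a peak at 2.12 hr, the nearest of the called regulator peaks to that of Fbp1. Cebpa, Ppara, the receptor for fatty acids, and Insr, the insulin receptor, were called rhythmic with peaks at 6.19, 8.08 and 6.47 hr. The adjusted permutation p did not pass for Foxa2 (0.291), Cebpa (0.257), Ppara (0.192) or Insr (0.154). Irs1, which relays the insulin signal, was highest at ZT4 (36.2 and 28.7 rpbp) and passed the F-test (limma adjusted p = 0.0478). These lists were chosen with earlier results of the data known, and their counts describe these genes only.

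Outside the lists, the symbols whose log2 signal over the 12 libraries was most like that of Pck1 were Map3k13 (Pearson r = 0.93), 1110032O16Rik (0.89) and U2af26 (0.88). For G6pc they were AK020256 (0.89), mKIAA1896 (0.86) and Med23 (0.86). For Fbp1 they were Oat (0.89), which encodes an aminotransferase of ornithine, Asb7 (0.86) and AK050351 (0.85), and for Pcx Lgals3bp (0.89), Pim1 (0.84) and BC075659 (0.82). These are the highest of 6284 values each, over points that share libraries and lanes, and are given as a description.

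The summed signal of all symbols ranged from 118342 to 160545 rpbp, 3390 to 4510 symbols exceeded 6 rpbp, and the median log2 deviation from the mean library ranged from -0.23 to 0.15. The log2 deviation of the symbols highest in exon GC content minus that of the lowest ranged from -1.20 in ZT8 replicate 2, which stood apart, and -0.57 in ZT20 replicate 2 to 0.52 in ZT16 replicate 1. Without ZT8 replicate 2 the Pck1 log2 light minus dark difference was -1.44 (limma adjusted p = 0.0474), its F-test had a limma adjusted p of 0.0374 and the F24 of Fbp1 was 0.694 (permutation p = 0.00756), so these calls held. The 8 hepatocyte markers had means of 16 to 527 rpbp, while 3 markers of kidney tubule, the other tissue known to make glucose, were at 0.133 rpbp or below and 3 of 4 bile duct markers were below 1 rpbp. The macrophage markers summed to 18.0 to 70.3 rpbp in the light hours and 26.1 to 45.1 rpbp in the dark hours. The 4 endothelial and 3 leukocyte markers had sums that overlapped between light and dark hours.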

How the data were processed

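Nascent RNA from nuclei of 12 mouse liver libraries was analysed. The other library types of the study were not analysed here. The authors aligned reads to mm9 (the submitters' processing notes name CASAVA 1.7 and TopHat), kept uniquely mapped reads, divided reads over all exons of a symbol by exon length and scaled the result by the uniquely mapped reads of each library. This deposited signal (rpbp, 1 decimal) is a normalized coverage, so no count model was fitted, and its depth in reads was not analysed here. The number of replicates limits the precision. The authors also deposited a 24-hr Fourier fraction, a phase and a p-value per symbol, which were not used. Blank lines (27919) were dropped.

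Time points and replicates were taken from the labels. Testing was limited to symbols that exceeded 6 rpbp in 1 library or more. F24 was computed on linear values, with a one-sided p from 100000 permutations. A gene was called rhythmic where F24 exceeded 0.45, its unadjusted p was under 0.05 and the ratio of its highest to its lowest value was over 1.5, and strongly so at F24 over 0.6 and a ratio over 7/4, limits taken from the methods of the study. Time points, light against dark hours and each time point against the other 5 were compared with limma 3.58.1 (R 4.3.3) on log2(rpbp + 1), with Benjamini-Hochberg adjustment over all tested symbols and calls at 0.05. Fold changes are on that scale, except between time-point means. Python 3.11.15, numpy 2.4.6, pandas 2.3.3 and scipy 1.17.1 were used, and the statistics were tested on simulated data.

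All 4 genes were named with every value, along with every called gene of the pathway lists (at most 12 per list), except 1 gene that is counted but not reported here, and the 3 symbols most correlated with each gene. The genes and the lists were chosen with earlier results of these data known. Alternatives were thresholds of 3 and 12 rpbp or none, a pseudocount of 0.1 rpbp, rescaled libraries, GC trend removed in 20 bins (GC content was known for 97.9% of tested symbols), single series, lanes, a replicate block and each library left out.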

Additional observations from a re-analysis of the deposited data

How the results depend on the processing

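Of the 4 genes, 1 was called rhythmic (Fbp1), against 15.2% of all tested symbols. The count was 0 with the adjusted permutation p (0.764% of all tested symbols) and in each replicate series alone (4.14% and 2.72%). It was also 0 with a 12-hr component, chosen after seeing the data (11.6%). With a limma test of the fitted cosine it was 0 with a replicate block (1.83%) and without one (2.59%). With most of these shares so low, a count of 0 does not set the 4 genes apart. In the 1-lane time points the count stayed 1 (16.7% of all tested symbols), but the gene was Pck1. Without each library in turn it was 1 to 1. The number of genes that differed between time points was 1, and 0 without a filter on low values and in the 2-lane time points alone (added after seeing the data), and 0 to 2 with a library left out. The number that differed between light and dark hours was 1, and 0 to 2 with a library left out. It was 0 without a filter, in the 2-lane time points and for ZT4 and ZT8 against ZT16 and ZT20. The exact permutation test gave an unadjusted p under 0.05 for 2 genes (Pck1, p = 0.0238, and Fbp1, p = 0.00216). That test was run on the 4 genes only, so its count has no share over all symbols and cannot be set against the adjusted counts. The number with a time point apart from the others was 1, and 0 without a filter and 0 to 2 with a library left out. The number of gene pairs with different time courses was 2 throughout the pseudocounts and 1 to 2 with a library left out. Few of all tested symbols were called where these counts were 0. Between time points 0.641% differed without a filter and 1.53% in the 2-lane time points. Between light and dark hours 1.03% differed without a filter, 1.53% in the 2-lane time points and 2.88% for ZT4 and ZT8 against ZT16 and ZT20. Of the pairs of gene and time point, 0.167% passed without a filter. Without the filter Pck1 kept its light minus dark difference (log2 -1.45), and its limma adjusted p was 0.0593. The light minus dark difference of G6pc, 0.02, turned to -0.039 with rescaled libraries, -0.10 with the GC trend removed, -1.53 in the 2-lane time points and -0.037 for ZT4 and ZT8 against ZT16 and ZT20, and ranged from -0.32 to 0.35 with a library left out. That of Pck1 was -1.37 (limma adjusted p = 0.217) in the 2-lane time points and -1.24 to -1.67 with a library left out. Where a library was left out, the remaining one of its time point was assumed to vary like the others. The causes of these changes were not tested. Replicate numbers were not treated as pairing the samples in the main tests. Deviations of libraries with the same number correlated by -0.12 to 0.32 (median 0.073) over the 15 pairs of time points, with 5 over 0.1. Such correlations cannot show whether libraries with the same number belong together. With a replicate block the Pck1 light minus dark difference stayed at -1.45 (limma adjusted p = 0.00717), and the number of genes called stayed at 1 in each limma comparison of time points.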
